A study of Mus musculus with 6 samples.

Results

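A set of 10 genes known from platelets and megakaryocytes was followed in RNA of natural killer (NK) cells sorted from mouse spleen. They were chosen by name from a count table of 55291 gene names. They are Vwf, Gp1bb and Gp9 (von Willebrand factor and subunits of its receptor), Itga2b and Itgb3 (the fibrinogen receptor), Gp6 and Clec1b (receptors for collagen and podoplanin), Treml1 (a granule receptor) and Pf4 and Ppbp (granule chemokines). The 6 libraries came from mice at steady state, 3 wild type (WT 1, 2 and 3) and 3 carrying HSF1 with serine to alanine changes at the sites named in S303/7A (S303/7A 5, 6 and 7, here also called mutant). HSF1 is the transcription factor of the heat shock response, and the series text calls the mutant mice HSF1-enhanced. Splenocytes of both groups were enriched on DX5 beads and sorted as CD49b+, CD3e- cells, 1 mouse per library. The labels give no age, sex, strain or batch, and no count of platelets in the sorted fraction.

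Platelets are cell fragments without a nucleus that are shed by megakaryocytes, which mature in bone marrow and, in the mouse, also in spleen. They keep messenger RNA from the megakaryocyte, and they adhere through von Willebrand factor and collagen receptors, aggregate through the fibrinogen receptor and release chemokines from their alpha granules. CD49b, the product of Itga2, is a collagen-binding integrin chain carried by both NK cells and platelets, so a sort on it does not by itself separate them. In bulk RNA, fewer platelets or megakaryocytes and less of these transcripts per cell cannot be told apart.

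Levels of platelet transcripts lay lower in S303/7A than in WT. Of the 10 genes, 9 had enough counts to be tested, and in each of these 9 every S303/7A library lay below every WT library. Over all 16480 genes tested, 8.37% were arranged in that way and 7.64% in the opposite way. The summed level of the 10 genes was 330, 349 and 318 CPM (counts scaled to library depth) in WT 1, 2 and 3, and 216, 169 and 188 CPM for S303/7A 5, 6 and 7, a mean of 333 ± 15.7 against 191 ± 23.8 CPM (SD, n = 3). Of the 9, Vwf alone passed a false discovery threshold of 0.05 over all genes in edgeR's quasi-likelihood test, where 0.231% of all genes were called lower and 0.364% in either direction. At an unadjusted p under 0.05 there were 8 of the 9 lower, against 5.47% of all genes, and 0 higher. The median log2 fold of the 9 was -0.77, beside 0.01 for all genes tested.

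Total counts ranged from 53845572 to 72736406 for WT libraries, against 43189163 to 47248039 for mutant ones, so depth differed with genotype. The 9 tested genes had from 119 to 7733 counts in a library. Each was well above the filter's minimum of 10 counts in both groups, so none entered the test through 1 group alone. The sorted cells carried NK transcripts at high levels, with Nkg7 at 4886 ± 430.0 CPM for WT, against 5191 ± 207 for mutant mice (SD, n = 3) and Gzma, a granzyme gene, at 5574 ± 1404 and 5291 ± 567. The 10 NK markers summed to 24781 to 28665 CPM for WT, against 25893 to 26959 CPM for mutant mice, with overlap. Of the 10, 1, Klrb1c, was called lower. Without overlap, 2 were lower (Klrb1c and Klrd1) and 2 higher (Klrk1 and Ncr1), against 8.37% and 7.64% of all genes, so the sum hides opposite shifts.

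**Figure D1:**
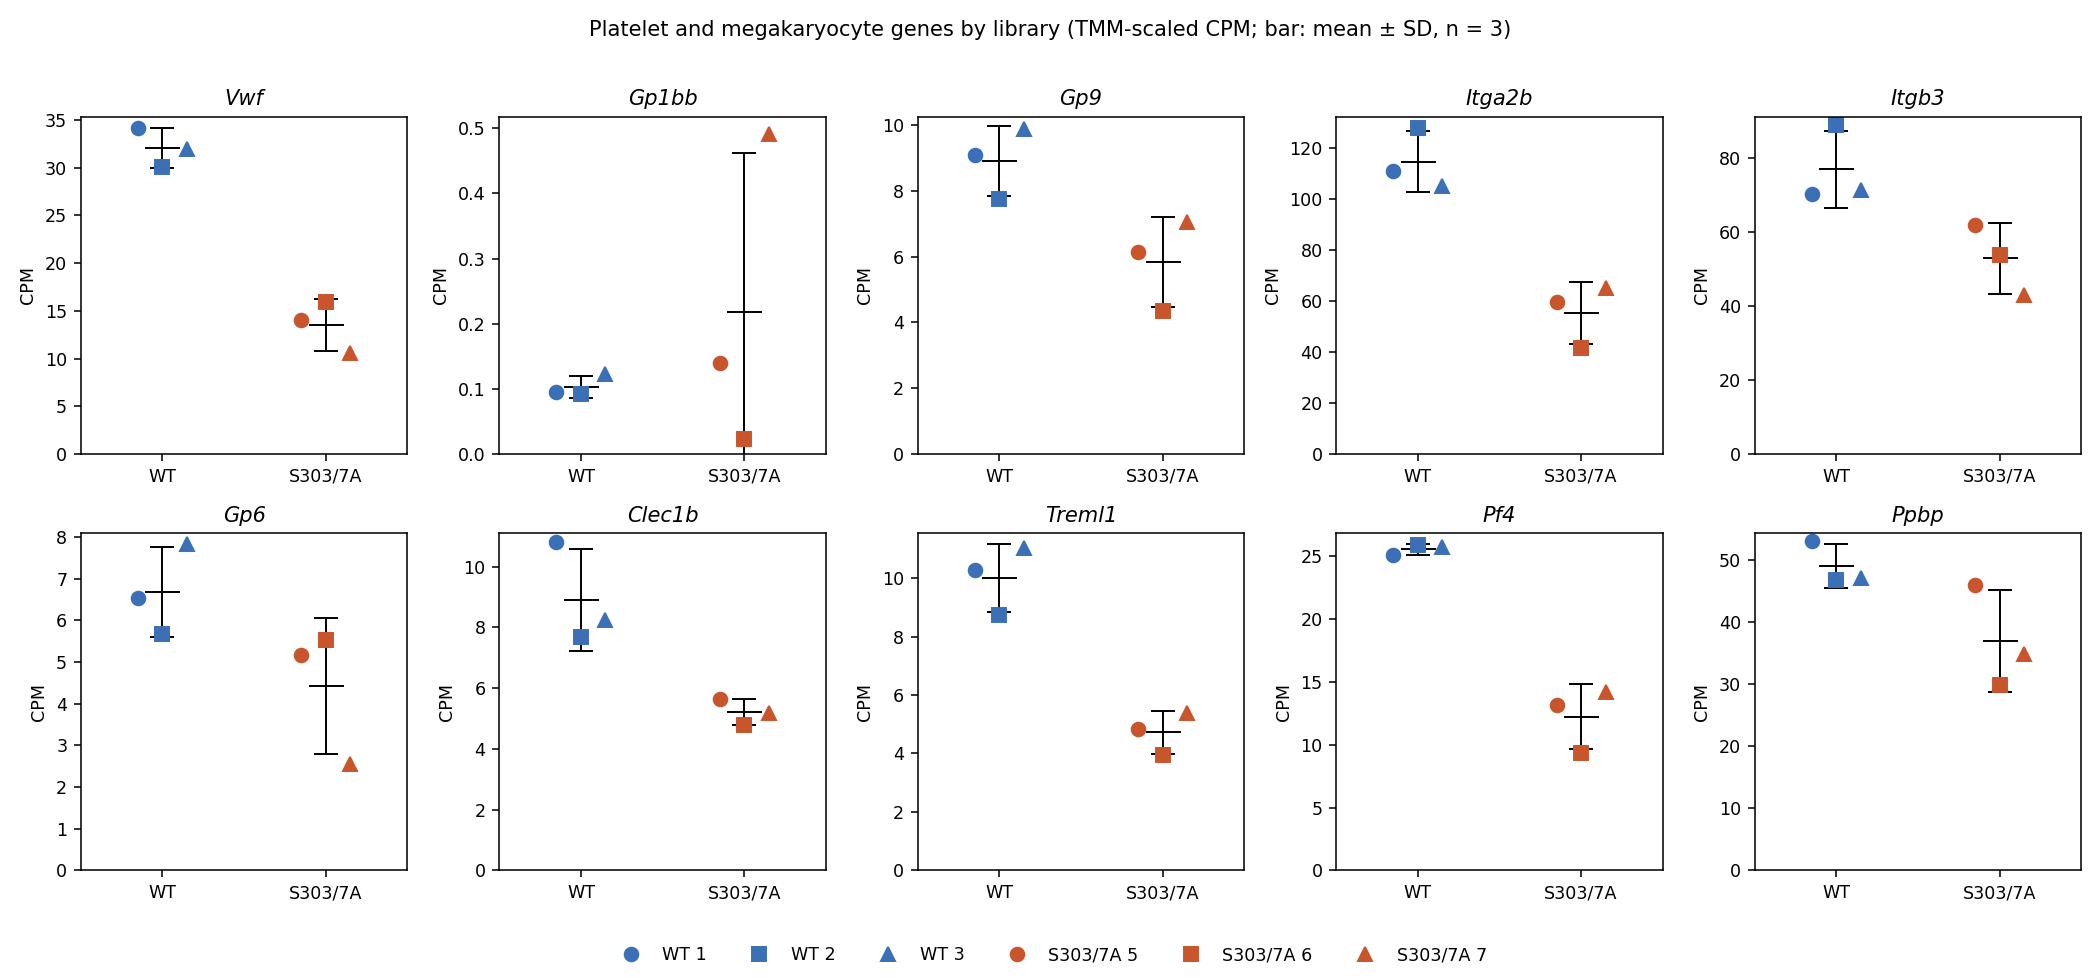
Level of each of the 10 genes in CPM (y axis, from 0) in the 3 WT (blue) and 3 S303/7A (orange) libraries, 1 point per library, with bars for the mean ± SD. In 9 panels the orange points all lie below the blue points, by a wide margin for Vwf, Pf4, Itga2b and Treml1 and by a narrow one for Ppbp and Gp6, and Gp1bb is below 0.5 CPM in every library.

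Levels were compared between genes per length of exon, as CPM per kilobase. In WT the granule chemokine Ppbp was highest, at 45.2 ± 3.27 CPM per kilobase (SD, n = 3), followed by Pf4 (35.4 ± 0.604), Itga2b (21.0 ± 2.18), Itgb3 (13.02 ± 1.76), Gp9 (10.1 ± 1.21), Treml1 (7.14 ± 0.828), Vwf (1.99 ± 0.128), Clec1b (1.75 ± 0.327) and Gp6 (1.13 ± 0.184). Of these neighbours in the order, Vwf and Clec1b alone overlapped between libraries in WT. In S303/7A the order was the same except that Clec1b (1.02 ± 0.0826) stood above Vwf (0.841 ± 0.170), with overlap, and Itga2b overlapped Itgb3 and Itgb3 overlapped Gp9.

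The 9 tested genes lie on several chromosomes, and the sequence before their transcription starts was examined for short motifs of the factor families known for megakaryocyte genes. RefSeq (GRCm38.p6) gave a start for 8 of the 10 genes. Vwf and Itgb3 were not matched. The 250 bases before the start were searched on both strands for short words. As GATA motif the search took AGATA or TGATA when the next base was A or G. As ETS motif it took GGAAG when the base before it was A or C. The RUNX motif had a pair of forms, the first written TGTGGT and the other, with a different inner base, TGCGGT. Each word has 6 bases, and no match overlapped another. Windows without a match are not shown. The windows of 4 genes with a match, from 4 different roles, are shown 5′ to 3′, with matches in capitals. They are the windows of Pf4, chr5:90772185-90772434 (plus strand), Itga2b, chr11:102469884-102470133 (minus strand), Gp9, chr6:87777820-87778069 (plus strand), and Gp6, chr7:4397745-4397994 (minus strand).
Pf4: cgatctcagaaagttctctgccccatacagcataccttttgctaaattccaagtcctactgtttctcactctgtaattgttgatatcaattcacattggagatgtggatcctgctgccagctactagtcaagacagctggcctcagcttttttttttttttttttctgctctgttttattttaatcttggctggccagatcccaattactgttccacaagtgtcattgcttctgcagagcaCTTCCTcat
Itga2b: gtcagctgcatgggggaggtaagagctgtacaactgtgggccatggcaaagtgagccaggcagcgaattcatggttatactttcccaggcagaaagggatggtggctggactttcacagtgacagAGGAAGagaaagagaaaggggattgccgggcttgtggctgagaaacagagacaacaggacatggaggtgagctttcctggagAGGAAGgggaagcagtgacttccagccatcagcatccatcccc
Gp9: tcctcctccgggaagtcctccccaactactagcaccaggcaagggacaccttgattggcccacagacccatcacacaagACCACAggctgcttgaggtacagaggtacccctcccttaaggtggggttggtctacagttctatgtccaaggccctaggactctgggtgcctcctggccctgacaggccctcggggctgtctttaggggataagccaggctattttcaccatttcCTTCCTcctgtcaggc
Gp6: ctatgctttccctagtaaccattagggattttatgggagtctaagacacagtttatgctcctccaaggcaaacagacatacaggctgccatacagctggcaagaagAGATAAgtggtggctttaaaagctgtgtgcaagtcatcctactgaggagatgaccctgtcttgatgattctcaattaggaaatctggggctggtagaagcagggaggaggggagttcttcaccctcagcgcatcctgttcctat
The ETS words stood in 4 of the 8 windows (Gp1bb, Gp9, Itga2b and Pf4), against 39.0% of 27025 genes with a window of the same length. The GATA words stood in 3 (Gp1bb, Gp6 and Clec1b), against 27.1%, and the RUNX words in 1 (Gp9), against 18.7%. Gp1bb alone held both a GATA and an ETS word, as 9.38% of all genes did. The windows of Treml1 and Ppbp held none of these words. The shares of the 8 genes are thus near those of all genes, and a match is a description of letters, not of a bound factor. Itga2b reaches from 102453297 to 102470122 in the GENCODE M21 annotation (GRCm38, minus strand), so its start there lies upstream of the RefSeq start. By that annotation most of the Itga2b window, with both its ETS words, lies inside the gene and not before it.

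Von Willebrand factor bridges exposed collagen and the platelet receptor, and is made by megakaryocytes and by endothelial cells. Vwf was measured at 34.2, 30.0 and 31.9 CPM in WT 1, 2 and 3 and at 14.0, 15.9 and 10.5 CPM for S303/7A 5, 6 and 7. All S303/7A values were thus less than 16 CPM and all WT values at least 30. Its log2 fold (mutant over WT) came to -1.25 ± 0.17 (SE, 95% interval -1.66 to -0.84), adjusted p 0.0470 by the quasi-likelihood test of edgeR. That call was lost when any 1 of the 6 libraries was left out (adjusted p 0.0567 to 0.201).

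Gp9 encodes a small subunit of the receptor for von Willebrand factor. It was at 9.08, 7.75 and 9.87 CPM in WT mice, against 6.13, 4.33 and 7.04 CPM in mutant mice. The groups stood close to each other without overlap, and the log2 fold of -0.61 ± 0.23 (SE, 95% interval -1.15 to -0.07) did not pass (adjusted p 0.454, edgeR).

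Gp1bb, the beta subunit gene of the same receptor, was almost without counts. It had 6, 5 and 9 counts in the WT libraries and 6, 1 and 23 in the S303/7A libraries, too few to test. Its exons span 2087 bases on chromosome 16, 18620317 to 18622403 (GRCm38, minus strand), and 92.9% of them are also exons of another gene on the same strand, Septin5 or Gm49601, in GENCODE M21. Septin5 had 379 counts over the 6 libraries and Gm49601 had 51. The sources used here do not say how reads in shared exons were counted, so the low value of Gp1bb is uncertain and says nothing about its transcript. Among the other members Clec1b alone shared exon bases with another gene, 3.61% with Clec9a.

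The alpha IIb and beta 3 chains form the fibrinogen receptor that links platelets in a clot. Itga2b, the chain restricted to the megakaryocyte line and a few other blood cells, was at 111, 128 and 105 CPM in WT mice, against 59.7, 41.6 and 65.0 CPM in mutant mice. Itgb3, whose product also pairs with other alpha chains, was at 70.3, 88.8 and 71.4 CPM in WT mice, against 61.8, 53.8 and 42.8 CPM in mutant mice. Both genes were thus below WT in all S303/7A libraries, Itga2b with a wide gap and Itgb3 with a narrow one. The log2 fold was -1.05 ± 0.17 (SE) for Itga2b (95% interval -1.45 to -0.65, adjusted p 0.0801, edgeR) and -0.54 ± 0.16 for Itgb3 (-0.91 to -0.17, adjusted p 0.323), and neither passed.

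Gp6, the collagen receptor that signals through the Fc receptor gamma chain, was at 6.53, 5.68 and 7.83 CPM in WT mice, against 5.17, 5.54 and 2.55 CPM in mutant mice. S303/7A 7 stood apart from the other libraries of its genotype, and its counting interval (2.11 to 3.05 CPM, exact Poisson, 95%) did not reach theirs. S303/7A 6 (5.54 CPM, interval 4.86 to 6.29) and WT 2 (5.68, interval 5.06 to 6.35) could not be separated at this depth. The log2 fold was -0.60 ± 0.32 (SE, 95% interval -1.35 to 0.16), with an adjusted p of 0.635 in edgeR. Clec1b, which encodes the podoplanin receptor CLEC-2, was at 10.8, 7.68 and 8.24 CPM in WT mice, against 5.64, 4.80 and 5.20 CPM in mutant mice, without overlap and with a log2 fold of -0.77 ± 0.20 (adjusted p 0.255, edgeR).

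Treml1, the gene of a receptor stored in alpha granules, was at 10.3, 8.74 and 11.0 CPM in WT mice, against 4.82, 3.94 and 5.39 CPM in mutant mice. The highest S303/7A library was thus far below the lowest WT library. Its log2 fold of -1.08 ± 0.20 (SE, 95% interval -1.55 to -0.62) had an adjusted p of 0.109 in edgeR.

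Pf4 and Ppbp encode CXC chemokines of alpha granules and lie next to each other on chromosome 5 (90772435 to 90773383 and 90768518 to 90770063, GRCm38, plus strand). Pf4 varied least in WT, at 25.0, 25.9 and 25.7 CPM, and was at 13.1, 9.34 and 14.2 CPM in S303/7A. Ppbp was at 53.0, 46.8 and 47.0 CPM in WT mice, against 45.9, 29.9 and 34.9 CPM in mutant mice. The 2 neighbours therefore differed in the size of the gap, as S303/7A 5 came within 1 CPM of WT 2 for Ppbp. The log2 fold was -1.06 ± 0.18 (SE) for Pf4 (95% interval -1.48 to -0.64, adjusted p 0.0881, edgeR) and -0.41 ± 0.17 for Ppbp (-0.80 to -0.02, adjusted p 0.497).

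The number of members called varied with the test. DESeq2 called 6 of the 9 lower (Clec1b, Itga2b, Itgb3, Pf4, Treml1 and Vwf, adjusted p from 2.58e-09 for Vwf to 0.0437 for Itgb3), where it called 1.72% of all genes lower. Without the low-count filter edgeR called 3 (Vwf 0.00409, Itga2b 0.00452 and Pf4 0.0176), where it called 0.343% lower. Limma-voom called Vwf alone (adjusted p 0.0496), as did edgeR with other size factors, with library totals and after thinning.

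Vwf, Clec1b and Gp9 lie on chromosome 6 (125546774 to 125686679, 129397297 to 129409335 and 87778072 to 87779768, GRCm38), so the mean was also taken without them. The mean log2 CPM of the 9 genes differed between the genotypes (mutant minus WT) by -0.84 ± 0.09 (SE, n = 3 against 3), and that of the 6 genes on other chromosomes by -0.81 ± 0.10. Leaving out S303/7A 6, the library with the lowest sum, gave -0.78 for the 9 genes.

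The correlation of the 9 genes mostly followed the genotypes. Over the 6 libraries the Pearson correlation of log2 CPM was above 0 for all 36 pairs, with a median of 0.81 and a range from 0.30 (Gp9 with Gp6) to 0.99 (Itga2b with Pf4). The median Spearman correlation was 0.77. These points share 2 groups that do not overlap, so the values mostly restate the genotype difference, and with 6 libraries they are a description. After the mean of each genotype was subtracted, the median fell to 0.19, with a range from -0.83 to 0.98 and 22 of 36 pairs above 0. That median was -0.12 without S303/7A 6, 0.05 without S303/7A 5, 0.32 without S303/7A 7 and 0.43 without WT 1.

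Among the S303/7A libraries the genes took opposite orders. Gp9, Treml1, Itga2b and Pf4 were each lowest in S303/7A 6 and highest in S303/7A 7, while Vwf and Gp6 were highest in S303/7A 6 and lowest in S303/7A 7. The WT libraries did not show the same sets. There Gp6, Gp9 and Treml1 were all lowest in WT 2 and highest in WT 3, and Itga2b was highest in WT 2 and lowest in WT 3. With genotype means subtracted over all 6 libraries, r was 0.98 for Gp9 with Treml1, 0.93 for Pf4 with Itga2b, 0.91 for Vwf with Gp6, -0.83 for Vwf with Pf4 and -0.82 for Vwf with Itga2b, and the cause was not tested.

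**Figure D2:**
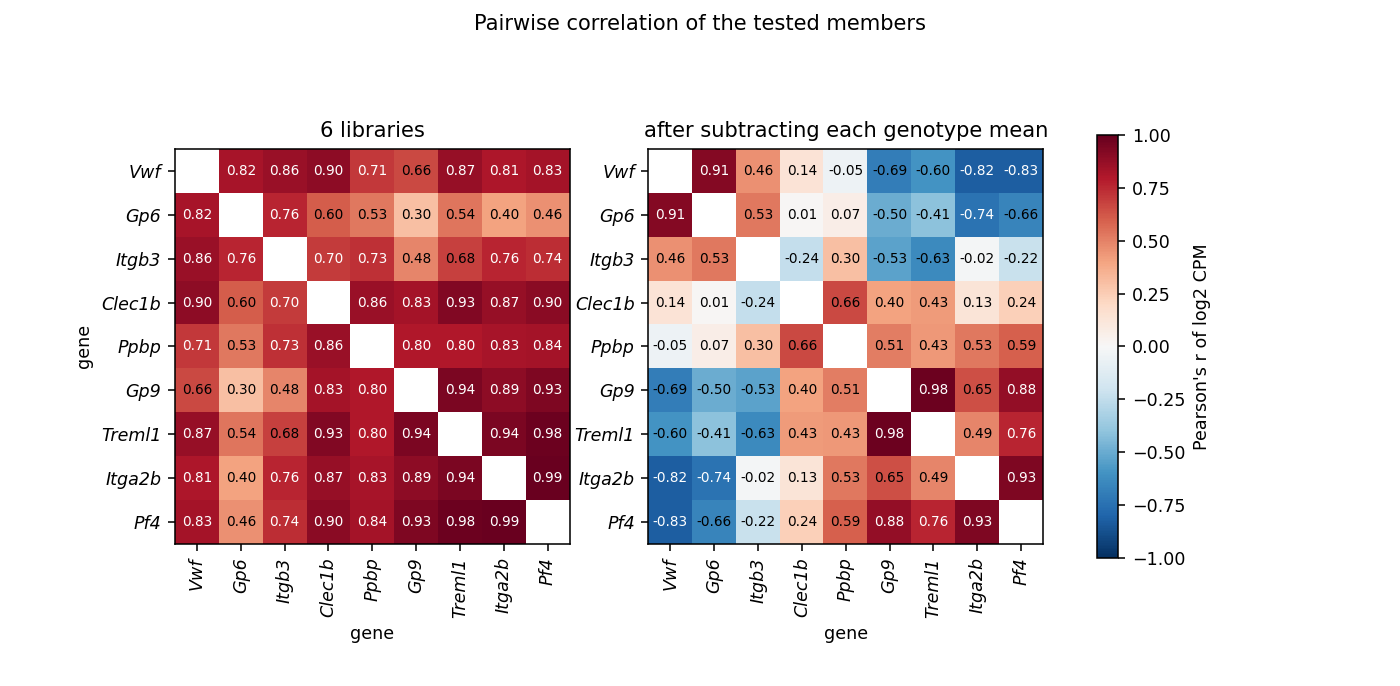
Pearson's r of log2 CPM for each pair of the 9 tested genes over the 6 libraries (left) and after the mean of each genotype was subtracted (right), from blue (-1) to red (1). On the left every pair is above 0, and on the right Vwf and Gp6 are positively correlated with each other and negatively with Gp9, Treml1, Itga2b and Pf4.

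The ratio of a gene's counts to those of Pf4 in the same library does not depend on scaling. For Itga2b and Treml1 the log2 ratio to Pf4 differed between the genotypes by 0.01 ± 0.08 and -0.01 ± 0.12 (S303/7A minus WT, SE, n = 3 against 3). Ppbp relative to Pf4 was higher by 0.66 ± 0.17, or 1.58-fold, with log2 ratios of 1.08, 0.85 and 0.87 in WT and 1.80, 1.68 and 1.29 in S303/7A, without overlap. Gp9 relative to Pf4 was higher by 0.45 ± 0.11, or 1.37-fold, also without overlap.

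The ratios of the other 4 genes overlapped between the genotypes. Vwf differed by -0.18 ± 0.35, Clec1b by 0.32 ± 0.22, Gp6 by 0.42 ± 0.52 and Itgb3 by 0.54 ± 0.29, each less than 2 SE. The median difference over the 8 genes was 0.37, and 0.12 without S303/7A 6. The differences for Itga2b and Treml1 were thus less than 1 SE, and those for Ppbp and Gp9 more than 2 SE. Counts of the 8 genes relative to 1 gene share its error, and no p was computed for these ratios.

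**Figure D3:**
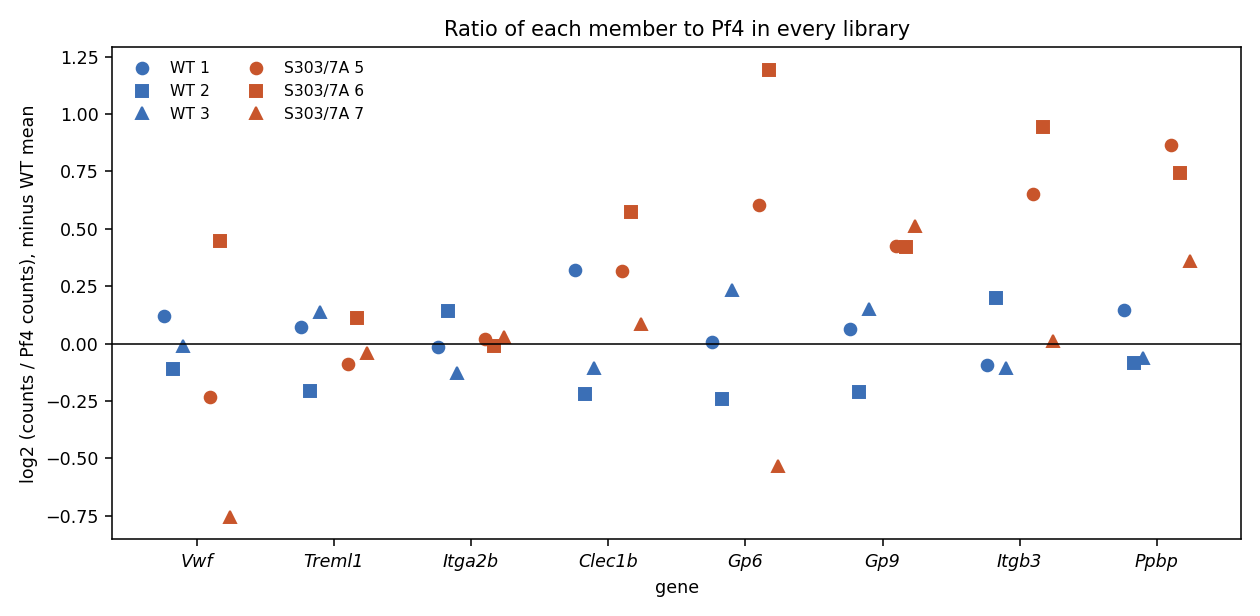
Log2 ratio of counts of each gene to those of Pf4 in every library, with the WT mean of that gene subtracted (y axis). Itga2b and Treml1 stay within 0.25 of 0 in all 6 libraries, Ppbp and Gp9 are higher in all S303/7A libraries, and Vwf, Gp6 and Itgb3 spread widely among the S303/7A libraries.

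A wider list of 36 platelet genes, chosen with earlier results of these data known, had mostly lower values. It leaves out 11 platelet genes that lymphocytes also use, which are described separately below. Of 35 tested, 0 passed the threshold in edgeR's quasi-likelihood test, while 23 had an unadjusted p under 0.05 and were lower, 0 were higher at that level, and DESeq2 called 15 lower and 0 higher. Over all genes, 5.47% were lower at that unadjusted level and DESeq2 called 1.72% lower. The median log2 fold was -0.74, 30 were below 0 (48.3% of all genes were), 1 (Cmtm5) had too few counts, and 21 were lower without overlap, 60.0% of those tested against 8.37% of all genes. Limma-voom called 0 of them, where it called 0.133% of all genes lower. Tbxa2r alone was higher without overlap. The most abundant of the list were Nbeal2, at 483 ± 15.7 CPM for WT, against 432 ± 6.50 for mutant mice, and Pear1, at 263 ± 13.1 and 265 ± 6.72 (SD, n = 3), levels above that of any member.

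Of 5 transcription factor genes of the megakaryocyte line, 3 (Nfe2, Gata1 and Gfi1b) were lower without overlap, with an unadjusted p under 0.05, and 0 were called in edgeR, while DESeq2 called 3. Over all genes, 8.37% were lower without overlap, 5.47% were lower at that unadjusted p, and DESeq2 called 1.72% lower. Nfe2, needed for platelet release, was at 59.1, 64.2 and 60.7 CPM in WT mice, against 35.7, 38.3 and 43.2 CPM in mutant mice, with a log2 fold of -0.65 ± 0.10 (SE) and an adjusted p of 0.0726 in edgeR. Gata1, the erythroid and megakaryocyte factor, was at 12.01, 14.8 and 17.7 CPM in WT mice, against 8.53, 7.72 and 6.95 CPM in mutant mice (log2 fold -0.94 ± 0.19, adjusted p 0.140). For both genes the values of the genotypes stood apart, but both were named for the lowest p of this sublist. Gata1 is also used by basophils and erythroid cells. Which cells the transcripts of these factors came from was not tested. Tal1 (log2 fold -0.10 ± 0.36, SE) and Zfpm1 (0.26 ± 0.36) overlapped between the genotypes.

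Among receptors, P2rx1, an ATP-gated channel of platelets, was at 24.7, 26.3 and 20.4 CPM in WT mice, against 12.6, 12.01 and 11.8 CPM in mutant mice (log2 fold -0.97 ± 0.14, SE, adjusted p 0.0565, edgeR). The log2 fold of Gp1ba, the large subunit of the von Willebrand factor receptor, was -1.27 ± 0.23 (adjusted p 0.110, edgeR), and that of Mpig6b, an inhibitory receptor, -0.81 ± 0.30 (0.455). None of these 3 overlapped between genotypes, but they were named for the lowest p of their sublists, which favours such separation. Lower without overlap were 2 of 4 adhesion receptor genes and 4 of 7 genes for receptors of soluble agonists, against 8.37% of all genes. The thrombin receptor gene F2rl2 overlapped between the genotypes, at 38.2 ± 4.21 CPM for WT, against 36.1 ± 3.82 for mutant mice (SD, n = 3). It was chosen after its values were seen.

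Of the genes for granule proteins, F5, coagulation factor V, was at 14.3, 19.3 and 12.2 CPM in WT mice, against 6.20, 5.70 and 5.61 CPM in mutant mice (log2 fold -1.38 ± 0.21, SE, adjusted p 0.0582, edgeR). Thbs1, thrombospondin, was at 94.9, 101 and 92.7 CPM in WT mice, against 64.4, 46.5 and 40.6 CPM in mutant mice (log2 fold -0.93 ± 0.17, adjusted p 0.105). Tubb1, the tubulin of the platelet marginal band, had a log2 fold of -0.72 ± 0.17 (adjusted p 0.203), and Myl9, a myosin light chain, of -0.91 ± 0.13 (0.0509). None of these 4 overlapped between the genotypes, but they were named for the lowest p of their sublists, which favours such separation. Over the sublists, 6 of 9 granule protein genes and 6 of 10 cytoskeleton and enzyme genes tested were lower without overlap. That was so for 8.37% of all genes.

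**Figure D4:**
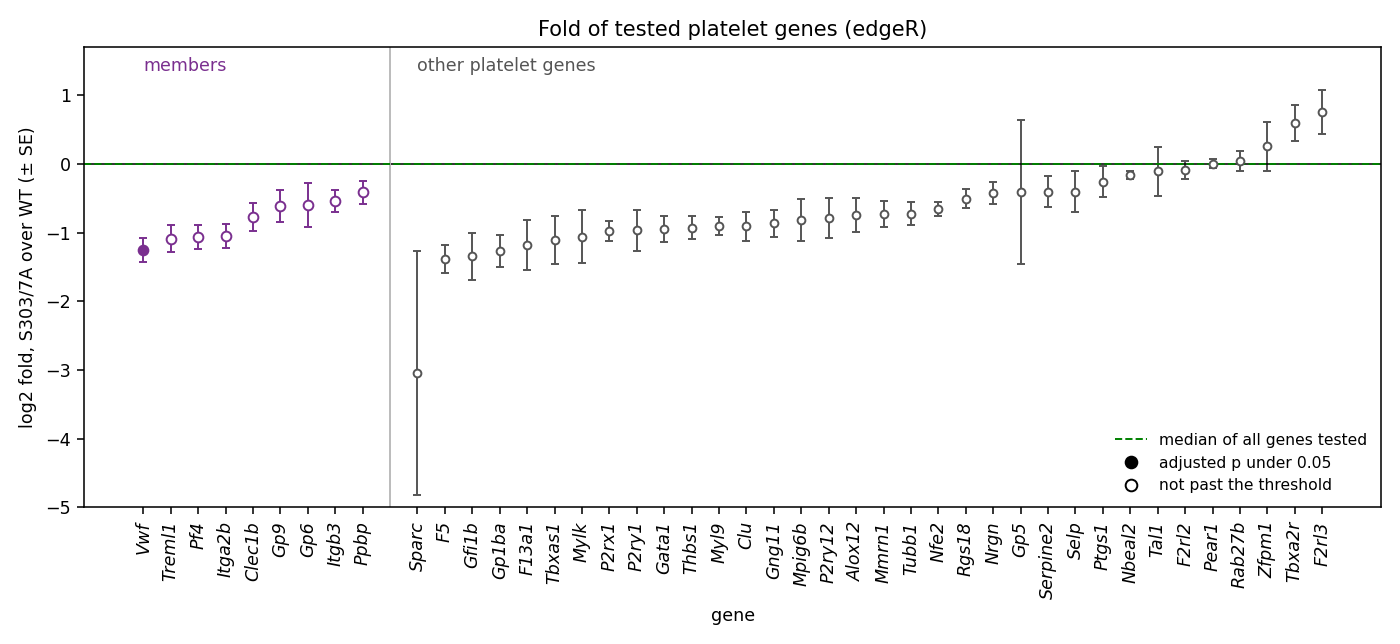
Log2 fold of S303/7A over WT (y axis, ± SE) for the 9 tested members (purple) and 34 of the 35 other platelet genes tested (grey), ordered by size, with the median of all genes tested as a dashed line. Vwf alone is filled, as the gene past the threshold, and 29 of the 34 grey points lie below 0.

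A further list held platelet genes that lymphocytes also use. Of 11 (such as Fermt3, Plek and Tln1, adaptor and cytoskeletal genes) 0 were called in edgeR, 1 had an unadjusted p under 0.05 and was higher (Fcer1g, the only 1 that DESeq2 called), and their median log2 fold was 0.01. The genes of the sort gate were measured as well. Itga2 was at 302 ± 19.5 CPM for WT, against 274 ± 45.4 for mutant mice (SD, n = 3, log2 fold -0.14 ± 0.12, adjusted p 0.797, edgeR), and Cd3e at 8.74 ± 3.57 and 12.7 ± 1.84.

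Summed markers of some other cells were also lower. The 10 basophil and mast cell markers summed to 509, 985 and 678 CPM in WT 1, 2 and 3. In S303/7A 5, 6 and 7 they summed to 345, 307 and 417 CPM. All 10 were detected. In edgeR 1 was called lower (Ms4a2), against 0.231% of all genes, and 8 were lower at an unadjusted p under 0.05, against 5.47%. Lower without overlap were 7, against 8.37% of all genes, and DESeq2 called 6 lower, against 1.72%. Their median log2 fold was -1.05, beside -0.77 for the 9 platelet members tested. The mean sum in WT was 2.03 times that in mutant mice, beside 1.74 times for the 10 members. Basophils carry CD49b too. Hdc, which makes histamine, was at 137 ± 48.4 and 61.2 ± 2.20 CPM (SD, n = 3), and Cyp11a1 at 108 ± 19.3 and 49.0 ± 8.73. WT 2 was thus highest for the basophil sum, as it was for the summed platelet genes, but it was the lowest WT library for 6 of the 9 platelet genes.

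Sums were also lower without overlap for neutrophil markers (51.5 to 89.0 CPM for WT, against 31.1 to 39.2 CPM for mutant mice), for erythroid markers (19.8 to 26.3 and 10.0 to 14.6) and for monocyte and macrophage markers (904 to 943 and 800.1 to 880.4), and single genes made up most of each. In the neutrophil sum Cxcr2, a chemokine receptor gene, was at 46.2 ± 5.25 CPM for WT, against 25.8 ± 4.39 for mutant mice (SD, n = 3), and Mpo, myeloperoxidase, at 11.5 ± 9.89 and 3.26 ± 0.995, with overlap. In the erythroid sum Car1, a carbonic anhydrase gene, was at 13.4 ± 4.37 and 6.37 ± 1.97 CPM, and Klf1, a transcription factor gene, at 3.27 ± 1.33 and 1.24 ± 0.185. In the monocyte sum Ccr2 was at 675 ± 55.3 and 630.3 ± 3.15 CPM (log2 fold -0.10 ± 0.07, SE) and Ly6c2 at 194 ± 28.0 and 170.3 ± 36.5 CPM, with overlap. Of these lists 0 genes were called in edgeR, and an unadjusted p under 0.05 with a lower level was found for 2 of 6 neutrophil, 3 of 9 erythroid and 0 of 9 monocyte genes tested. Over all genes 5.47% were lower at that level. DESeq2 called 1, 2 and 0 of the genes of these lists lower, against 1.72% of all genes. Some defining genes were near 0, with Hbb-bs, a globin gene, at most 1.67 CPM and Ly6g at most 0.0233 CPM in any library. Sums of B cell, T cell, stem and progenitor cell and NK markers overlapped between the genotypes. The part of basophils and of these other cells in the platelet result was not tested.

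Endothelial cells, the other source of von Willebrand factor, left few counts. The 10 endothelial markers summed to 4.70 to 6.80 CPM for WT, against 2.57 to 6.18 CPM for mutant mice, with overlap, and Vwf alone was at 10.5 CPM or more in every library. Which cells the Vwf transcript came from was not tested. Cdh5, the cadherin of endothelial junctions, had 0 counts in all 6 libraries, which allows up to 0.0159 CPM over the WT and 0.0224 CPM over the S303/7A libraries (3 counts per group, counting error only).

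**Figure D5:**
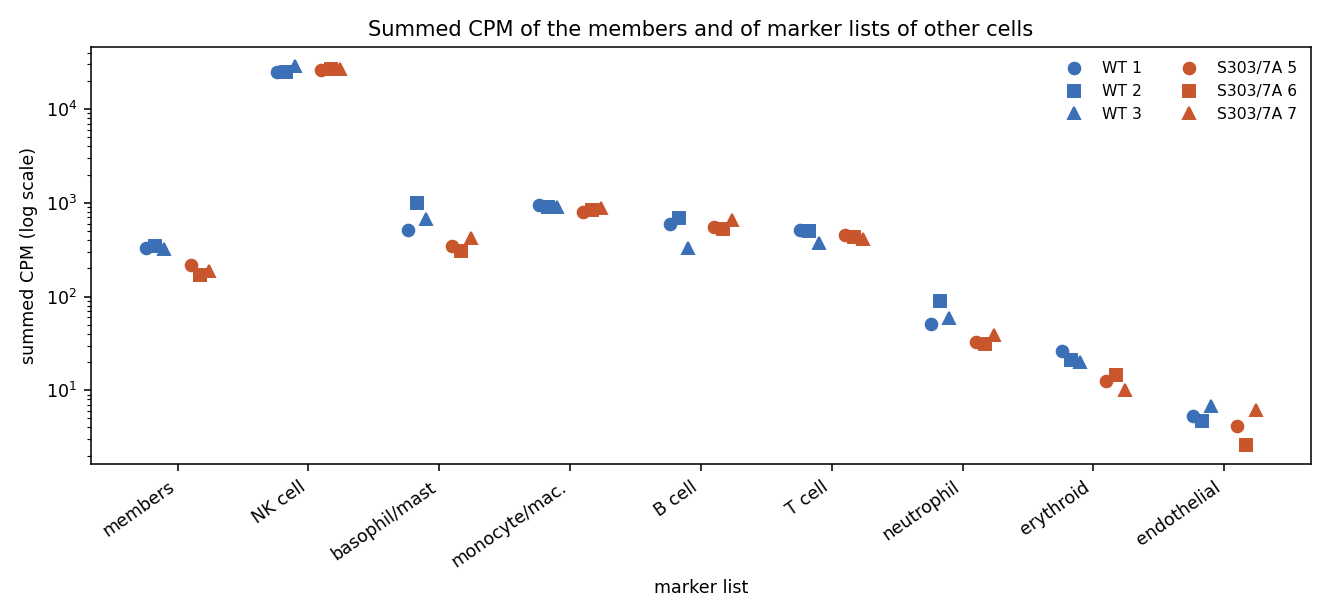
Summed CPM (y axis, log scale) of the 10 members and of marker lists of other cells in each library. The members and the basophil, neutrophil, erythroid and monocyte lists are lower in all S303/7A libraries, the monocyte list by a small step. The NK list overlaps between the genotypes, at 24781 to 28665 CPM, and the endothelial list stays below 7 CPM.

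The genes with a pattern most like the mean log2 CPM of the 9 members were sought among 9954 other genes with a mean log2 CPM of at least 2. The 8 most alike were Dctn1, Aoc2, Nrd1, Leng8, Klra13-ps, Mdp1, Gm4735 and Farsa, with Pearson correlations of 0.98 to 0.99 over the 6 libraries. None of these 8 is on the platelet list. Dctn1, the first, was at 183 to 184 CPM for WT, against 165 to 170.1 CPM for mutant mice, a much smaller step than in the platelet genes. Gm4735 was at 14.1 to 15.3 CPM and 1.22 to 1.58 CPM. Likeness here thus reflects the shape of the pattern over the libraries and not the size of the step. The members separate the 2 genotypes, so a high correlation with their mean mostly restates the genotype difference. A correlation above 0.9 was reached by 165 of the 9954 genes (1.66%), and by 13 of the 29 platelet list genes among them.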

How the data were processed

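Raw counts per gene symbol were deposited by the authors for 6 libraries, made per the labels' protocols from sorted splenic NK cells with the SMART-seq HT kit. The tools named, per the submitters' processing notes, are STAR, featureCounts, Trimmomatic and DESeq2, with GRCm38 (mm10) as build. Which versions, annotation and strand setting were used is not given in the sources used here. A deposited table of normalized values was not used.

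The test was edgeR 4.0.16 under R 4.3.3. Its filterByExpr (minimum count 10, minimum total 15) left 16480 genes, TMM factors scaled the libraries, and the quasi-likelihood test compared S303/7A with WT, with Benjamini-Hochberg adjustment over all genes tested and a threshold of 0.05. A gene past it is described as called. Standard errors are the size of the log2 fold divided by the root of the F statistic. CPM are TMM-scaled, log2 CPM used a prior count of 0.5, and exon lengths and positions are from GENCODE M21 (GRCm38). Counting intervals and floors cover counting error only. The test was tested on simulated data, and the outcome is not reported here.

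DESeq2 1.42.0, limma-voom (limma 3.58.1), other scalings, no filter, thinning and leaving out each library were alternatives. Members, gene lists and tests were chosen with earlier results of these data known. Text names all members, the gate genes, the 2 platelet genes of lowest p per sublist (1 of them is not reported here), markers of highest mean CPM where a result touches them, and the 8 genes most alike. Other genes were chosen after their values were seen. Single cells of tumours and open chromatin were not analysed here.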

Additional observations from a re-analysis of the deposited data

How the results depend on the processing

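All 9 tested genes had a log2 fold below 0 under the 12 alternatives run for each, and all 9 were free of overlap between the genotypes with the 2 other scalings too. Of the 9, limma-voom and edgeR with other scalings or thinning called 1, DESeq2 called 6, edgeR without the low-count filter 3, and edgeR with 1 library left out 0 in each of 6 fits, where 6 to 7 had an unadjusted p under 0.05. Of the other platelet genes, DESeq2 called 15 and edgeR 7 without the filter. It called 1 with library totals and 1 after thinning to the smallest total (Myl9 in both), and 0 to 1 with 1 library left out (Thbs1 without S303/7A 5). Over all genes, 60 calls became 437 in DESeq2, 38 in limma-voom, 171 without the filter and 5 to 57 with 1 library left out (27, 5 and 21 when WT 1, 2 or 3 was dropped, and 31, 57 and 30 when S303/7A 5, 6 or 7 was). The cause was not tested, except that fits without a library hold fewer samples. Each difference in mean log2 CPM of the members lay between -0.92 and -0.78. No paired analysis was possible because the groups share no replicate numbers. With 3 libraries a group, no outlier test was made. Gp1bb had 1 to 23 counts a library, too few to test.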

Other observations

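Gp5, which encodes a further subunit of the von Willebrand factor receptor, did not vary with the other platelet genes, and was chosen after its values were seen. Its level was 11.1, 5.77 and 0.952 CPM in WT 1, 2 and 3, against 1.59, 1.07 and 10.7 CPM for S303/7A 5, 6 and 7. Libraries of both genotypes were thus high or low, and its log2 fold of -0.41 ± 1.05 (SE) did not pass (adjusted p 0.952, edgeR's quasi-likelihood test). Genes with no platelet role had a like order of libraries. Micu2, of the mitochondrial calcium uniporter, was at 154, 109 and 28.7 CPM in WT mice, against 50.9, 33.1 and 148 CPM in mutant mice. Prdm4 was at 58.4, 31.7 and 9.75 CPM and at 14.4, 11.3 and 66.4 CPM. Eomes, an NK transcription factor gene, was at 476, 315 and 148 CPM and at 180.4, 140 and 716 CPM. Their Pearson correlations with Gp5 in log2 CPM over the 6 libraries were 0.99, 0.99 and 0.97, as a description over genes picked from 9962 for likeness. The cause was not tested.

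Platelet receptor genes that were higher in S303/7A were few. F2rl3, a thrombin receptor gene, was at 3.34, 7.37 and 5.60 CPM in WT mice, against 9.32, 11.3 and 6.97 CPM in mutant mice, and Tbxa2r, the thromboxane receptor gene, was at 13.2, 13.04 and 8.55 CPM and at 16.6, 13.3 and 22.9 CPM. Neither passed (adjusted p 0.518 for both, edgeR), and both were named after their values were seen.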
